A study of Mus musculus with 4 samples.

Results

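The major histocompatibility complex (MHC) genes of mouse chromosome 17 were described by the CTCF binding around them. Members were the protein-coding genes of chromosome 17 whose symbols begin with H2- in the GENCODE M21 basic annotation of GRCm38, the assembly also named mm10. The rule found 34 genes among the 21755 protein-coding genes of chromosomes 1 to 19 and X. They were 9 class II genes, 24 class I genes and H2-Ke6, a steroid dehydrogenase gene of neither class that lies between them. Only symbols chose the members, so no binding value entered the choice.

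CTCF was mapped by chromatin immunoprecipitation and sequencing in the hippocampus of adult male B6CASTF1/J mice aged 2 months, the F1 cross of C57BL/6J with CAST/EiJ. All samples formed a single group, with no treated, mutant or other comparison group. The group held 2 biological replicates, each a pool of 7 tissue biosamples, and each pool gave 2 technical libraries that share their deposited values. The labels call the tissue a layer of hippocampus, give both pools the same donor label, and do not say whether the pools came from separate animals, so the spread between replicates may be partly technical. The deposited lists give no read counts, so depth is unknown. They do not separate the parental alleles or the cell types of the tissue, and expression was not measured.

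CTCF is a zinc-finger protein that binds a directional DNA motif and, with cohesin, anchors chromatin loops, most often between motifs that face each other. Class I molecules display peptides from inside the cell to CD8 T cells and natural killer cells and are made by most cells, neurons included. Class II molecules display peptides from engulfed material to CD4 T cells and are made by antigen-presenting cells, which in brain are mainly microglia and cells at its borders. In human B cells, CTCF sites between class II genes have been described as looping to the promoters of their neighbours.

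Peaks came from the list that the authors thresholded between the replicates at an irreproducible discovery rate (IDR) of 0.05, which held 90278 peaks on these chromosomes. A summit is the base of highest signal in a peak. Peak signal is the score of the authors' peak caller. Its scale is not stated, so it ranks peaks within a list. Its median was 165 over all summits, and the strongest 10% of summits began at 718. A transcription start site (TSS) is the first base of an annotated transcript, and a summit at most 1 kb from it counted as a promoter summit. Windows were gene bodies with 10 kb on either side.

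Most of the strong class II sites had a match to the 12-base CTCF core consensus, searched on both strands within 50 bp of the summit with at most 1 mismatch. These stretches of 52 bases of mm10 are shown because the account of the class II block rests on them. Each is written 5′ to 3′ on the strand that holds the match, with the 12 core bases in capitals.
Between H2-Oa and Brd2, chr17:34101638-34101689, plus strand: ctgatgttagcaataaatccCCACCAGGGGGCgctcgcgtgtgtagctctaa
H2-DMa promoter, chr17:34135399-34135450, plus strand: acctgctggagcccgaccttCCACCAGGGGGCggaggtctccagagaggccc
Upstream of H2-Ob, chr17:34235150-34235201, minus strand: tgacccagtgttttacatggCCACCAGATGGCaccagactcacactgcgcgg
H2-Ob intron, chr17:34250044-34250095, plus strand: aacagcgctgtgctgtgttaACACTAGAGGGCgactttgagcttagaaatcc
H2-Ab1 promoter, chr17:34264205-34264256, minus strand: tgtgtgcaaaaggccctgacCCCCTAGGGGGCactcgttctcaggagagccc
H2-Aa intron, chr17:34286021-34286072, minus strand: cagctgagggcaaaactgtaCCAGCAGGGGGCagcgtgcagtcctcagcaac
Between H2-Eb2 and Btnl2, chr17:34349595-34349646, minus strand: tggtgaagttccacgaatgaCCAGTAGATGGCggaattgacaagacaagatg
The 12-base core was matched exactly between H2-Oa and Brd2, at H2-DMa, upstream of H2-Ob, in H2-Aa and beyond H2-Eb2, and with 1 mismatch in the H2-Ob intron and at H2-Ab1. At most 1 mismatch was found near 50.3% of all summits, and in 1.25% of equal windows placed 1 kb away.

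A promoter summit was present at 8 of 34 members, or 23.5% (95% exact interval 10.7 to 41.2), against 38.0% of all protein-coding genes and 36.6% of those on chromosome 17. The interval of the members includes both of these shares. The class II genes had 2 of 9 (22.2%, interval 2.81 to 60.0) and the class I genes 5 of 24 (20.8%, interval 7.13 to 42.2). These intervals overlap. The class II minus class I difference was 1.39 percentage points, and its sign changed with the promoter definition: it was -5.56 points within 500 bp of a TSS and -9.72 points with the gene's 5′ end as its only TSS. The intervals cover counting error only and treat genes as independent, which neighbouring genes that share summits are not. No test was run on the members for that reason.

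**Figure D1:**
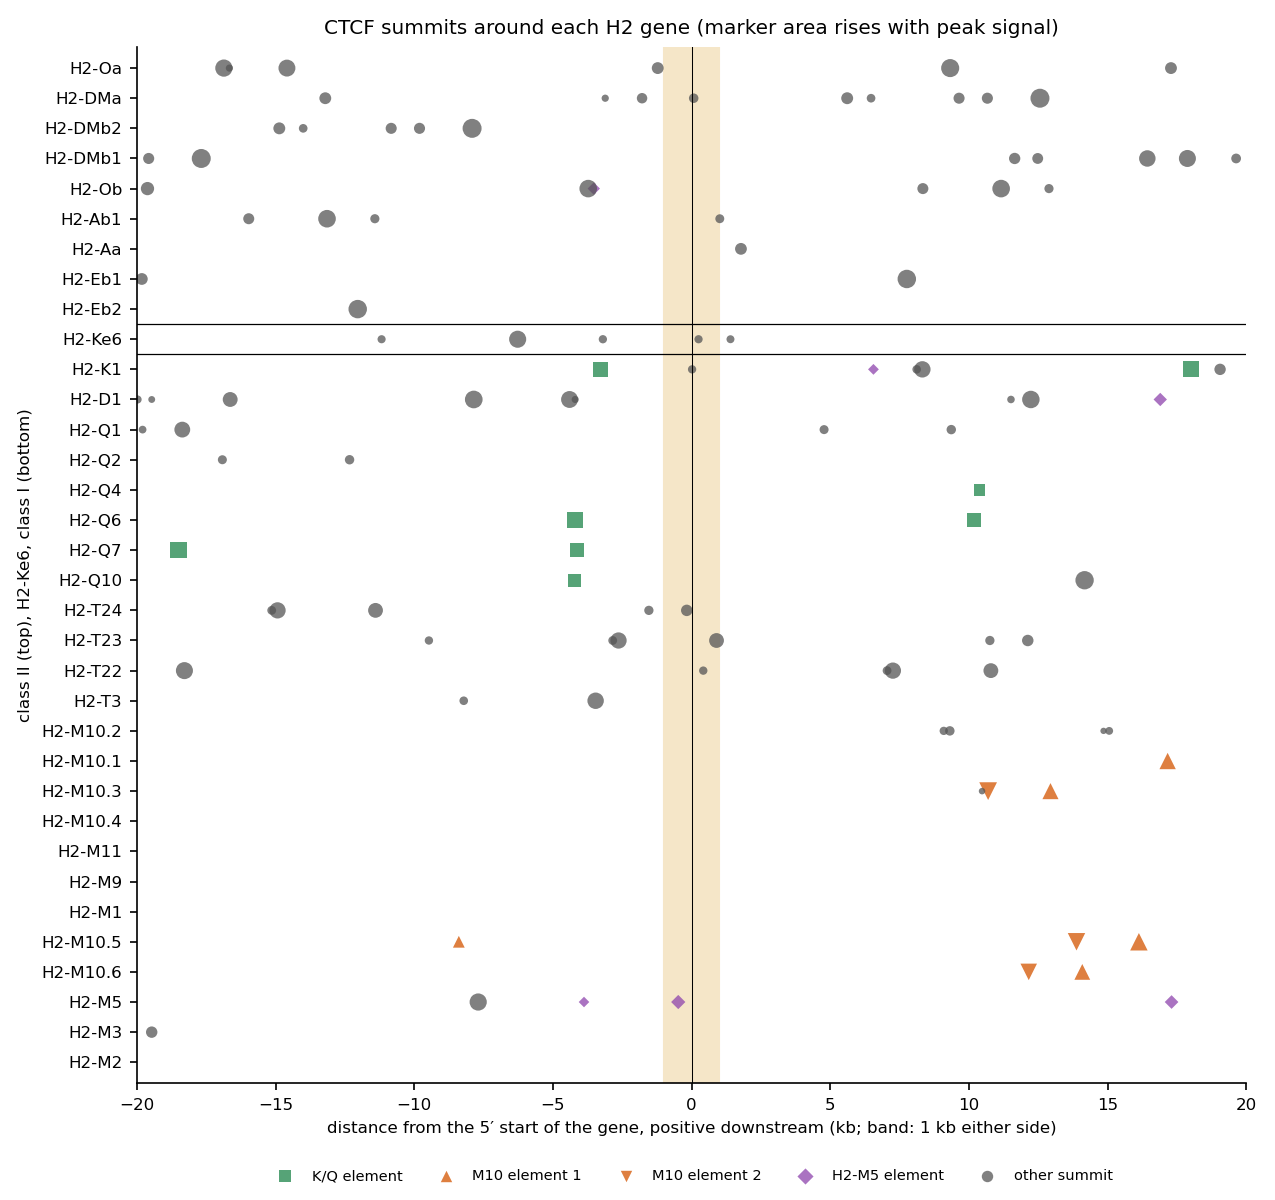
CTCF summits within 20 kb of the most upstream TSS of each H2 gene, plotted by distance in kb from that TSS. Class II genes are at the top, H2-Ke6 next and class I genes below. Marker area rises with the peak signal, shapes mark the repeated elements described in the text, and the band marks 1 kb on either side. Squares recur at a like distance upstream of H2-K1, H2-Q6, H2-Q7 and H2-Q10, and no marker stands beside H2-M10.4, H2-M11, H2-M9, H2-M1 or H2-M2.

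Among the class II promoters, H2-DMa stood first. H2-DMa encodes the alpha chain of DM, which exchanges peptides on class II molecules, and its 3 annotated TSSs spread over several kb. The stronger of its 2 promoter summits lay 236 bp upstream of the second TSS, with a signal of 900.1, which exceeds 99.9% of all summits. The replicate signals there were 453 in replicate 1 and 453 in replicate 2. The weaker summit lay 75 bp downstream of the first of the 3 TSSs, with a signal of 154 and replicate signals of 88.2 and 64.2. That TSS is inside the gene as annotated, which begins further upstream. The weaker summit also fell within 1 kb of a TSS of Brd2, a bromodomain protein gene, so it cannot be given to H2-DMa alone. The stronger summit was in both replicate lists but not in the authors' thresholded pooled-read list, where H2-DMa counted as occupied through the weaker summit.

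The other class II promoter was that of H2-Ab1, the beta chain of the A molecule. Its summit lay 975 bp downstream of a TSS, near the 1 kb limit, with a signal of 125 and replicate signals of 59.4 and 65.5. Just past the limit, H2-Oa, the alpha chain of O, which inhibits DM, had a summit 1222 bp upstream with a signal of 293. H2-Aa, the alpha chain of the A molecule, had a summit 1747 bp downstream with a signal of 288. The distance limit therefore decides which of these genes count. H2-DMb2 and H2-DMb1, which encode beta chains of DM, had their nearest summits at 7915 and 11648 bp. H2-Ob, the beta chain of O, had its nearest at 3527 bp. H2-Eb1, the beta chain of the E molecule, and H2-Eb2 had no promoter summit.

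Of the 5 class I genes with a promoter summit, 3 were T genes. H2-T23 encodes Qa-1, a ligand of an inhibitory receptor of natural killer cells. Its summit lay 898 bp downstream of the TSS, with a signal of 511 and replicate signals of 251 and 256. H2-T24 had a summit 175 bp upstream, with a signal of 268 and replicate signals of 134 and 134. H2-T22, whose product is recognised by some gamma delta T cells, had a summit 363 bp downstream, with a signal of 97.1 and replicate signals of 47.7 and 49.7. H2-T3, which encodes the thymus leukaemia antigen, had none within 1 kb, so 3 of 4 T genes were occupied. In each of the 3 occupied T genes the replicates differed by little against the distance between genes. Within 100 bp of the summit, 35.3% of 32-base words occurred once in the genome at H2-T23. The share was 33.5% at H2-T22 and 100% at H2-T24. Reads at the first 2 genes may therefore be shared with other copies, and the part of this in their signals was not tested.

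Of the classical class I genes, which present peptides to CD8 T cells, H2-K1 had a summit 17 bp downstream of a TSS, with a signal of 95.4 and replicate signals of 43.7 and 48.4. H2-D1 had none within 1 kb, and its nearest lay 4198 bp upstream. H2-M5 was the only occupied gene of the 12 M genes, with a summit 482 bp upstream, a signal of 184 and replicate signals of 97.3 and 85.4. That summit lay on a sequence with many copies in the region, described below. None of the 6 Q genes was occupied. The 95% exact intervals were 0.211 to 38.5% for the M genes and 0 to 45.9% for the Q genes. Both include the 38.0% of all protein-coding genes. H2-Ke6 had a summit 236 bp downstream, with a signal of 90.6 and replicate signals of 35.6 and 54.6. It was in the thresholded list of replicate 1 but not in that of replicate 2.

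Apart from the H2-DMa and H2-T23 summits, promoter signals of members were moderate. The median strongest promoter signal over all occupied protein-coding genes was 197, and H2-K1, H2-T22, H2-M5, H2-Ab1 and H2-Ke6 lay below it. The core consensus was matched at 3 of the 9 promoter summits of members, namely H2-DMa, H2-Ab1 and H2-M5, against 50.3% of all summits. The share at promoter summits of all genes was not computed, so no difference is read from this count.

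In the wider windows, class II genes held more summits per 100 kb than class I genes. All 9 class II genes had at least 1 summit in their windows, as did 16 of 24 class I genes, 26 of 34 members and 81.0% of all protein-coding genes. Merged class II windows held 24 distinct summits in 206 kb, or 11.6 per 100 kb. Merged class I windows held 36 in 546 kb, or 6.60 per 100 kb, against 5.19 for all protein-coding genes and 5.95 for those of chromosome 17. Within class II, the 4 A and E genes held 6.75 per 100 kb and the 5 DM and O genes 16.8. Within class I, the 2 classical genes held 20.4, the 4 T genes 11.0, the 6 Q genes 5.17 and the 12 M genes 3.58. Inside the gene body itself, 5 of 9 class II genes and 3 of 24 class I genes had a summit, against 61.0% of all protein-coding genes. Gene bodies had a median length of 10.8 kb in class II and 4.30 kb in class I, against 17.4 kb over all. The median number per gene was 8.74 per 100 kb in class II and 6.11 in class I, against 6.004 for all genes. The class II minus class I difference was 5.05 per 100 kb with flanks of 10 kb and 11.6 without flanks. Without H2-DMa, whose window alone held 9 summits, it was 2.73, and without the 12 M genes among the 24 class I genes it was 1.88. These last 2 settings were chosen after the values were seen. The median distance from a TSS to the nearest summit was 3527 bp in class II and 8742 bp in class I, against 2675 bp for all genes.

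**Figure D2:**
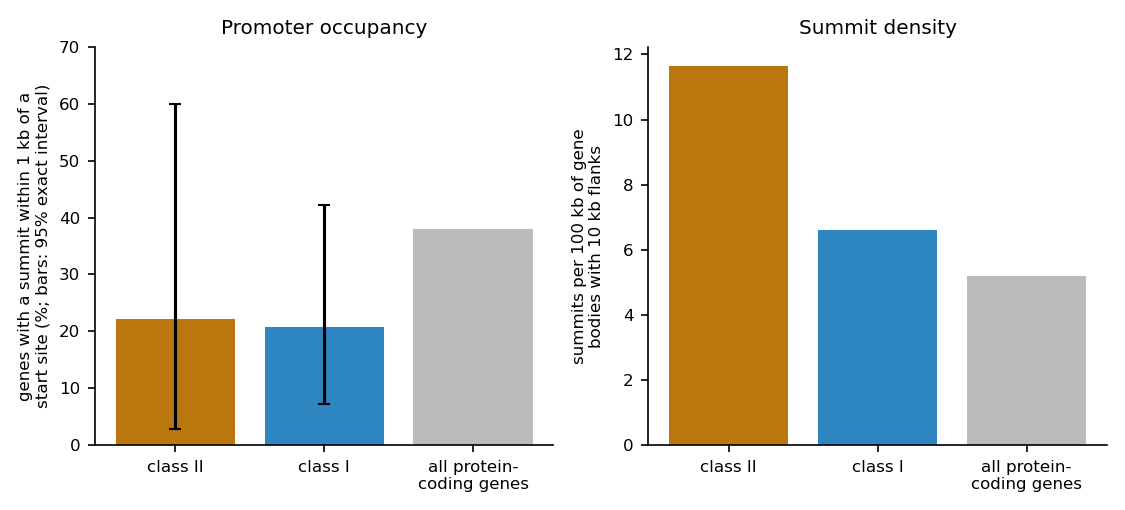
Left, percentage of genes with a summit within 1 kb of a TSS in class II genes, class I genes and all protein-coding genes, where bars on the members are 95% exact intervals. Right, summits per 100 kb of merged gene bodies with 10 kb flanks in the same groups. The shares of the classes are 22.2% and 20.8%, with intervals that both include 38.0%, and the densities are 11.6, 6.60 and 5.19.

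Class I window summits lay mostly between genes, and those of class II were spread over promoters, introns and intergenic sequence. Of the 24 class II summits, 8 lay within 1 kb of a TSS of some gene, 8 in introns, 7 between genes and 1 in a noncoding exon. Of the 36 class I summits, 26 lay between genes, 6 at promoters and 4 in introns. Over all summits, 33.8% lay between genes and 13.9% at promoters. Median signal was 251 in class II windows and 285 in class I windows, against 165 over all summits, and 6 of 24 and 5 of 36 were in the strongest 10%. The core consensus was matched at 11 of 24 class II summits (45.8%, interval 25.6 to 67.2) and at 23 of 36 class I summits (63.9%, interval 46.2 to 79.2), and these intervals overlap. Exact matches ran the other way, at 6 of 24 class II summits and 3 of 36 class I summits, against 9042 of all 90278 summits. Allowing 2 mismatches, 75.0% of class II and 77.8% of class I summits matched, against 75.7%.

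Across the class II block, from H2-Oa to H2-Eb2 (chr17:34092340-34341412), 29 summits lay in 249 kb. Apart from the H2-DMa and Tap2 promoters, the strongest sites lay between genes and in introns. The site between H2-Oa and Brd2, in an intron of the noncoding transcript CR974462.2, had a signal of 808 and replicate signals of 403 and 411. Beyond H2-DMb1, a pair of neighbouring summits had signals of 655 and 704. The Tap2 promoter, in the middle of the block, had a summit with a signal of 794 and replicate signals of 398 and 397. This summit lay 931 bp from a TSS of Tap2, near the 1 kb limit. Tap2 encodes a subunit of the transporter that feeds peptides to class I molecules.

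On the side of the A and E genes, a summit 3728 bp upstream of H2-Ob had a signal of 757, with 351 in replicate 1 and 411 in replicate 2. An intron of H2-Ob held a summit of signal 761, with replicate signals of 381 and 383. Intronic sequence of H2-Ob also held weaker summits of 240 and 136, and the H2-Ab1 promoter followed at 125. An intron of H2-Aa held a summit of signal 288, with replicate signals of 149.7 and 137. Between H2-Eb2 and Btnl2, a summit had a signal of 789 and replicate signals of 378 and 415.

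The strand of the motif matches varied along the block. Upstream of H2-Ob the match was on the minus strand, and the 2 matches in intronic sequence of H2-Ob were on the plus strand. Those at the H2-Ab1 promoter, in H2-Aa and beyond H2-Eb2 were on the minus strand, so the intronic H2-Ob matches faced them across the A and E genes. Towards the other end, the matches between H2-Oa and Brd2 were on the plus strand, and the strong H2-DMa summit had matches on both strands. From H2-DMb1 to H2-Ob the strands were mixed: the summit of 704 beyond H2-DMb1 had a plus match, the Tap2 promoter a minus match and a weaker summit in a Tap2 intron a plus match. Contacts between these sites were not measured.

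**Figure D3:**
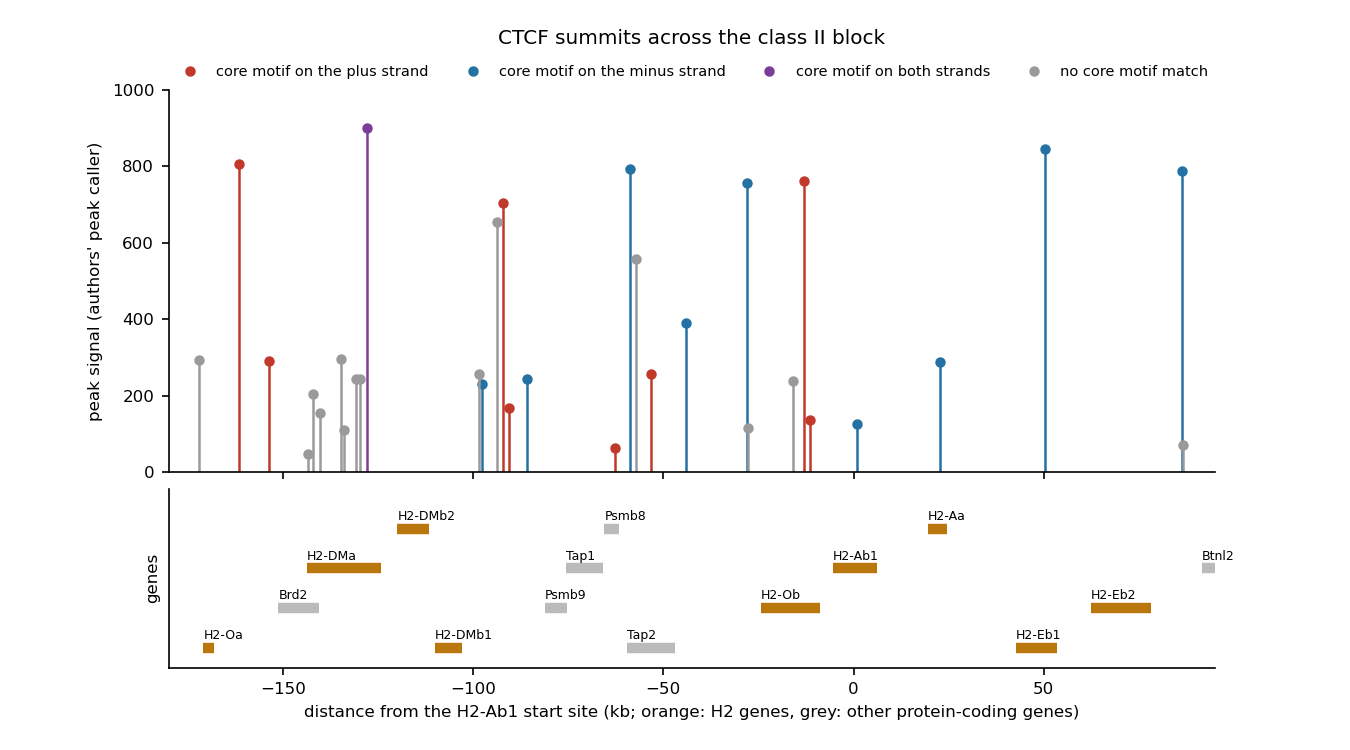
Peak signal of each CTCF summit across the class II block by distance in kb from the H2-Ab1 TSS, coloured by the strand of the core match, over the positions of the H2 genes in orange and other protein-coding genes in grey. Right of the H2-Ab1 start, every coloured summit has its match on the minus strand and the summit beyond H2-Eb2 reaches 789.

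Class I genes outside the M cluster were bound mainly in their flanks. At H2-K1 the strongest summit lay 8230 bp downstream of the TSS, past the end of the gene, with a signal of 645 and replicate signals of 318 and 330. H2-D1 was flanked by summits of 767 at 7855 bp upstream, 695 at 4401 bp upstream and 747 at 12232 bp downstream. No summit lay inside H2-D1. Beyond H2-Q10, whose product is secreted by liver, lay a summit of signal 835, with replicate signals of 424 and 412. Of the T genes, H2-T23 and H2-T22 shared a summit of signal 634 with an exact core match, and H2-T3 had a summit of signal 650 with an exact match 3461 bp upstream.

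Other summits near class I genes lay on copies of a shared sequence. Chosen after the values were seen, 52-base stretches at 4 class I summits were searched across the region with at most 10 mismatches. Here and below, counts of copies include the copy each stretch was taken from, whose summit was fixed by the choice. The first stretch, taken at H2-Q10 and called the K/Q element here, had 7 copies, and all 7 carried a summit within 100 bp. The copies below are shown because their cores are the same while their signals differ.
K/Q element at H2-K1, chr17:34003611-34003662, minus strand: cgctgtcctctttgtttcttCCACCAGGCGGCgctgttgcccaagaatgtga
K/Q element at H2-Q5, chr17:35389965-35390016, plus strand: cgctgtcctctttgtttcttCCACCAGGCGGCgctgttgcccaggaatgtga
K/Q element at H2-Q6, chr17:35420644-35420695, plus strand: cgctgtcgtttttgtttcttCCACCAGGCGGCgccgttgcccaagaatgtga
K/Q element at H2-Q7, chr17:35435017-35435068, plus strand: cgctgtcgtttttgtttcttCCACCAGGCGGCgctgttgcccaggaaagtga
K/Q element at H2-Q10, chr17:35465851-35465902, plus strand: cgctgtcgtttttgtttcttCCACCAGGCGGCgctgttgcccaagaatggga
The capitals again mark the core, here with 1 mismatch to the consensus. In 6 of the copies, those of H2-K1, the pseudogenes H2-K2 and H2-Q5, and H2-Q6, H2-Q7 and H2-Q10, the element lay between 3290 and 4212 bp upstream of the gene, and in all 7 it was on the strand of the gene. H2-Q6 and H2-Q7 encode Qa-2 antigens.

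Signals of the K/Q element were 631 at H2-K2, 528 at H2-K1, 593 at the copy 24392 bp upstream of H2-Q1, 283 at H2-Q5, 640 at H2-Q6, 418 at H2-Q7 and 377 at H2-Q10. The replicates kept this spread: 321 and 320 at H2-Q6 against 168 and 208 at H2-Q10. The copies differed in how much of their sequence was unique. Of the 32-base words within the element, 85.7% occurred once in the genome at H2-Q6, 38.1% at the copy upstream of H2-Q1, 23.8% at H2-Q5 and H2-Q7, 14.3% at H2-K2 and H2-Q10 and 0% at H2-K1. Within 100 bp of the summits the share was 26.5% at H2-Q6, 30.6% at H2-Q5, 47.6% at H2-Q7, 44.7% at H2-Q10 and 51.2% at H2-K1. How the authors' aligner placed reads from such copies is not stated, and the part of this in the signals was not tested.

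A second pair of elements recurred in the M10 cluster. The M10 genes are expressed with a family of pheromone receptors in neurons of the vomeronasal organ.
M10 element 1 near H2-M10.3, chr17:36355452-36355503, plus strand: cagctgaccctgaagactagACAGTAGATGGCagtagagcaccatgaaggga
M10 element 1 near H2-M10.5, chr17:36764490-36764541, minus strand: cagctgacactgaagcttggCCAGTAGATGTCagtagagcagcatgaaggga
M10 element 1 without a summit, chr17:36384981-36385032, plus strand: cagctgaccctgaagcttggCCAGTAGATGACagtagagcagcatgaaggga
M10 element 2 near H2-M10.3, chr17:36357696-36357747, plus strand: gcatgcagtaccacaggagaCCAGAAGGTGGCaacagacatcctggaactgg
Capitals mark the core, and the third sequence is shown as the copy that lacked a summit. M10 element 1 had 6 copies, and 5 carried a summit, with signals between 288 and 749. M10 element 2 had 3 copies, all with a summit, with signals between 661 and 774. The 3 copies of element 2 each lay 1916 to 2252 bp from a copy of element 1, downstream of H2-M10.3, H2-M10.5 and H2-M10.6. Every copy of element 1 near these genes and H2-M10.1 was on the strand opposite to the gene. At the H2-M10.3 pair the replicate signals were 301 and 320 for element 1, and 360.0 and 415 for element 2.

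The promoter site of H2-M5 belonged to a much larger set. Its 52 bases had 273 copies in the region, of which 45, or 16.5%, carried a summit, with signals between 44.2 and 403 and a median of 79.5.
H2-M5 element, chr17:36989945-36989996, plus strand: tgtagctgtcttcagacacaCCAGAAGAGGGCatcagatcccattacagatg
It is shown because the core match stood at copies with and without a summit: at most 1 core mismatch was found in 39 of the 45 copies with a summit and in 93 of the 228 without. No 32-base word of the element occurred once in the genome at 27 of the 45 copies and 118 of the 228, so a missing summit there does not show that CTCF was absent. The H2-M5 promoter copy was among the 27, and within 100 bp of its summit the share of such words was 44.7%. Identical copies lay elsewhere in the region, some with a summit and some without. The part of these copies in the H2-M5 promoter signal was not tested. Summits at other copies lay in the windows of H2-K1, with a signal of 65.7, of H2-M5 itself, with 58.7, and of H2-Ob, with 116. Those at H2-K1 and H2-M5 were in neither replicate's list nor the pooled-read list. The one at H2-Ob was the second summit of a peak with a stronger one, with replicate signals of 25.0 and 74.9. No repeat annotation was used, so the element is not given a family name.

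Long stretches without a summit held 5 of the 12 M genes. The 4 genes H2-M10.4, H2-M11, H2-M9 and H2-M1 lay in a single interval of 308 kb between 2 summits of the main list. Of the 90258 intervals between neighbouring summits, 0.850% were at least as wide. This share counts intervals, and a wide interval is more likely to hold a given gene than a narrow one. The share of sequence in intervals this wide was not computed. The 308 kb interval held no unresolved bases, and 70.2% of its 32-base words occurred once in the genome. The replicate 1 list held no peak in it, the replicate 2 list 1 and the pooled-read list none, and 1 candidate of signal 45.0 failed the threshold. H2-M2 lay in an interval of 2594 kb, a width that 0.00665% of intervals reached, where 38 of 49 protein-coding genes were olfactory receptor genes. The lists of the replicates held 2 peaks each in that interval.

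H2-M3, which presents formylated peptides of bacteria, lay in an interval of 57.9 kb together with 3 olfactory receptor genes. A candidate 303 bp from its TSS had replicate signals of 17.1 and 12.8 and failed the threshold. H2-T3 lay in an interval of 61.7 kb, H2-M10.3 in one of 60.6 kb, and H2-Q2 and H2-Q4 in another of 60.1 kb. Between 10.4% and 11.2% of all intervals were at least as wide as these 4, again counted by interval and not by sequence. In all, 8 class I genes had no summit in their windows: H2-Q2, H2-M10.1, H2-M10.4, H2-M11, H2-M9, H2-M1, H2-M3 and H2-M2.

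By cluster, counted from the first to the last gene without flanks, the class II block held 11.6 summits per 100 kb and the T cluster 7.04. The Q cluster held 3.89, and the stretch from H2-M10.2 to H2-M10.6 held 1.88. The whole region from H2-K1 to H2-M2 (chr17:33996017-37483552) held 294 summits in 3488 kb, or 8.43 per 100 kb, against 4.02 on chromosome 17 and 3.43 over all chromosomes. Median signal was 258 over the summits of the class II block and 633 over the 10 summits of the M10 stretch.

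**Figure D4:**
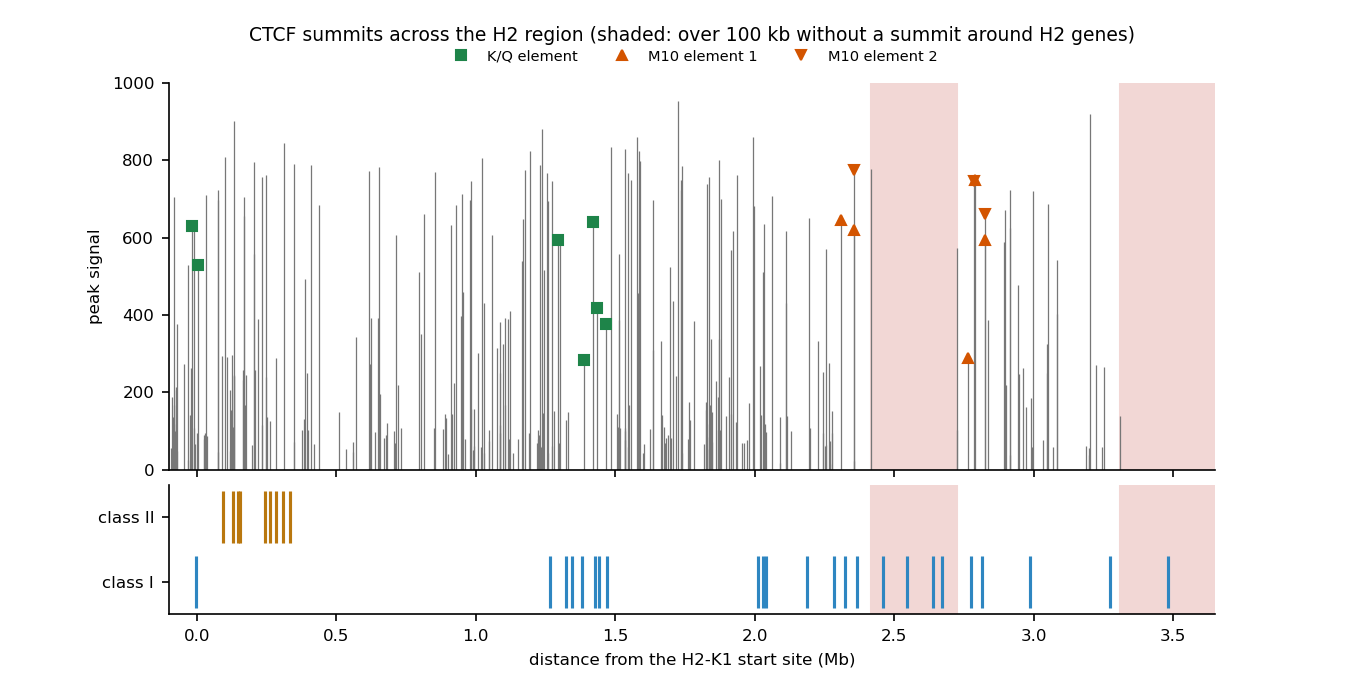
Peak signal of each CTCF summit by distance in Mb from the H2-K1 TSS, above the positions of class II and class I genes. Squares and triangles mark copies of the K/Q and M10 elements, and shading marks the intervals of 308 and 2594 kb without a summit around members, the wider of them cut at the edge of the plot.

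The share of 32-base words that occur once in the genome differed between the classes. Within 1 kb of TSSs the median of this share was 95.8% in class II genes and 87.7% in class I genes, against 97.7% at other chromosome 17 promoters. The lowest were 30.5% at H2-Q6, 32.7% at H2-Q7 and 39.6% at H2-T23. Around window summits the median was 100% in class II and 59.4% in class I. The part of this in the counts of class I summits was not tested.

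The replicates gave close signals at the members. The list was thresholded on agreement between these same replicates, so this closeness was partly a condition of entry. Across the 64 window summits, the log2 ratio of replicate 1 to replicate 2, less the median over all summits, had an SD of 0.37, against 0.41 over all summits. Of the 64, 4 lay more than 2 SD from 0 for their signal decile, against 3.99% of all summits. The widest were -1.49 upstream of H2-Ob and -1.47 beyond H2-Eb2, both second summits in a peak with a stronger one. Of the 24 class II summits, 22 were in the list of replicate 1, 23 in that of replicate 2 and 22 in the pooled-read list. Of the 36 class I summits, the counts were 32, 33 and 33. Over all summits the shares were 79.0% in the list of replicate 1, 79.5% in that of replicate 2 and 77.0% in the pooled-read list.

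**Figure D5:**
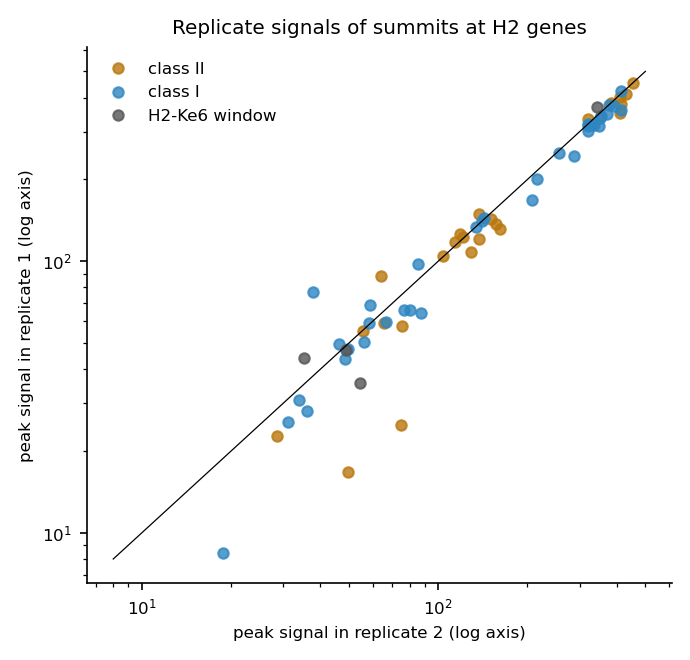
Peak signal in replicate 1 against replicate 2 for the 64 summits in windows of H2 genes, both on log axes, coloured by class, with a line at equal signal. Most points lie on the line, and the class II points far below it are the second summits with ratios of -1.49 and -1.47.

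Genes that work with the MHC molecules had promoter summits at a share whose interval includes that of all genes. Of 26 listed antigen presentation genes, 25 matched a protein-coding gene, and 12 of them had a promoter summit (48.0%, interval 27.8 to 68.7), against 38.0%. The strongest were Tap2 at 794 and Erap1, a peptidase that trims class I peptides, at 697. Tapbp, which holds class I molecules at the transporter, had 166, and Nlrc5, the transactivator of class I genes, had 109. The factors Rfx5 and Rfxank, which bind class I and class II promoters, had 83.0 and 144. Genes without a promoter summit included Ciita, the transactivator of class II genes, Cd74, the invariant chain, B2m, the light chain of class I molecules, and Tap1, Psmb8 and Psmb9 within the class II block.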

How the data were processed

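CTCF ChIP-seq came from 2 biological replicates of mouse hippocampus with 2 technical libraries each, with mm10 as the assembly per the labels. Which aligner, peak caller and control were used is not given in the sources at hand. Peak lists were deposited by the authors for each replicate, on pooled reads and between replicates. Each deposited peak has a signal of the authors' peak caller on an unstated scale, an IDR score of up to 1000 (540 at an IDR of 0.05, 830 at 0.01) and a q-value given as -log10. In the deposited pooled-read ranking, the signals of the input peak sets were kept as a score. Replicate signals were the input signals of the ranked between-replicate list. Of its input peaks, 78.1% of set 1 and 80.0% of set 2 had the same coordinates and signal in the list of replicate 1 and of replicate 2, and 0 in that of the other.

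Earlier results of these data were known when members, classes and the antigen presentation list were chosen. Members and classes were set by gene symbol alone, and the repeated elements were chosen after the values were seen. Genes named were all 34 members, with values for those with a promoter summit, for those near the 1 kb limit and for the strongest summits. TSSs came from GENCODE M21. The 12-base core consensus of CTCF was searched within 50 bp of summits, and word uniqueness used all 32-base words of chromosomes 1 to 19, X and Y. Intervals of shares are 95% exact (Clopper-Pearson). Coordinates are 1-based. The result at 1 site is not reported here. No test was run. The counting steps were tested on simulated data. Software was scipy 1.17.1, pandas 2.3.3 and numpy 2.4.6 under Python 3.11.15, with figures drawn in matplotlib 3.10.9. Alternatives covered the peak list, the IDR threshold, the promoter distance, the TSS set, the flanks and the motif mismatches.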

Additional observations from a re-analysis of the deposited data

How the results depend on the processing

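Of 79 values recomputed under alternatives, 64 kept their direction and stayed near the reported value, 13 moved and 2 changed sign. Within 500 bp of a TSS, 1 class II gene was occupied and the class II minus class I share was -5.56 points, against 30.3% of all genes occupied. With the gene's annotated 5′ end as the only TSS, 1 class II gene was occupied and that share difference was -9.72 points, against 34.8% of all genes. That gene was H2-DMa, whose annotated 5′ end lies upstream of its first TSS. It was occupied there through a summit of signal 48.7 that was in neither replicate's list nor the pooled-read list. Within 5 kb, 17 members, 5 class II and 11 class I genes were occupied, with a difference of 9.72 points, against 59.6% of all genes. Without flanks, class I density was 2.83 summits per 100 kb and the class difference 11.6. The density difference was 2.73 without H2-DMa and 1.88 without the M genes, both chosen after seeing the data. With no mismatch allowed, 25.0% of class II and 8.33% of class I summits matched the core, and with 2 allowed 75.0% of class II summits did. The cause of these shifts was not tested. From 1 replicate's list alone, 7 to 8 members were occupied, against 34.0% of all genes for replicate 1 and 33.7% for replicate 2, and the list of replicate 2 lacked H2-Ke6. The stricter IDR threshold, the pooled-read list, the comprehensive TSS set and peaks reduced to the strongest of overlapping ones gave the same 8 members, against 34.7%, 31.2%, 43.9% and 37.9% of all genes. The 43.9% lies above the interval of the members, 10.7 to 41.2, and the others lie inside it.

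No paired analysis was possible because the technical libraries that share replicate numbers share their deposited values. Depth is unknown, so a promoter without a summit shows only that none passed the threshold in these lists. How reads of near-identical class I copies were placed is not stated, and differences of either parental genome from mm10 were not examined.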

Other observations

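The pooled-read list of the authors left out many of the strongest sites. Of all 90278 summits of the between-replicate list, 77.0% had a summit of the pooled-read list within 100 bp. The share was 85.1% of the strongest 10% of summits but 31.8% (287 of 903) of the strongest 1%, which began at a signal of 851. In the list of replicate 1 the strongest 1% were found at 96.2%, and in that of replicate 2 at 94.2%. The H2-DMa site of signal 900.1 was among those left out. In the pooled-read ranking it had the same summit and signal, with 434 and 465 in the pair of input peak sets, but an IDR score of 72, below the 540 that the threshold asks for. Counts of the strongest sites therefore differ between these lists, and the cause was not tested.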
